A study of Homo sapiens with 9 samples.

Results

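The 10 genes described here encode receptors of the epidermal growth factor receptor (ERBB) family, ligands that bind them, and an inhibitor of the receptor: EGFR, ERBB2, ERBB3, AREG, EREG, TGFA, HBEGF, BTC, EPGN and ERRFI1. They were chosen by name, with earlier results of these data known, and each matched 1 of the 78894 Ensembl gene identifiers in the expression files. All but EPGN, 9 of the 10, were high enough to be tested, among 17100 genes in all. RNA was sequenced from CAL27, an established tongue squamous carcinoma cell line, in 4 groups: Control, A2ko, A8ko and C9ko. The last 3 are labelled as knockouts, and the series title names an enhancer in head and neck carcinoma. All groups were grown without treatment in DMEM with serum. The labels do not name the edited sequence, nor say whether a knockout is 1 clone or a pool, or whether samples of a group came from separate cultures, so p-values measure only the spread between these samples.

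ERBB receptors are tyrosine kinases of the cell surface. Their ligands are made as membrane-bound precursors, are cut free by proteases of the ADAM family, and bring receptors together in pairs, which activates the RAS-ERK and PI3K-AKT pathways. EGFR is abundant in squamous epithelium and in many squamous carcinomas of the head and neck, and keratinocytes use AREG, EREG, TGFA and HBEGF to stimulate themselves and their neighbours. ERRFI1, also called MIG6, binds the EGFR kinase and blocks it, and its gene is switched on by the same signalling.

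The labels list 9 samples, 3 of Control and 2 of each knockout. Both A2ko files held identical values and the same column name (A2B), and so did both A8ko files (A8B), so each pair counts as 1 library. That left 7 distinct libraries, 3 from Control, 2 from C9ko and 1 from each of the other groups, which therefore have no replicates. Values are TPM, a share of the library per transcript length, and the depth behind them is unknown. Mitochondrial transcripts took 23.1 to 26.9% of the TPM in Control, 20.6% in A8ko, 25.2% in A2ko, and 20.2 and 17.9% in C9ko. Over the 17100 tested genes (at least 1 TPM in at least 2 libraries) the median log2 difference from Control lay between 0.09 (A8ko) and 0.12 (A2ko), with C9ko at 0.11. After scaling by the median of ratios it was 0.00 in A2ko and A8ko and -0.01 in C9ko. Scaled values are given beside those of the members, and for other genes where the sign or the call changes or the value moves by over 1.5 times. Medians over gene lists are as deposited. Of the genes called in C9ko, 74.8% were higher as deposited and 54.6% after scaling. All 8 squamous epithelial markers were above 1 TPM in every library, and their summed level was 15516 to 16610 TPM in Control and 6009 to 9137 TPM in the knockouts. KRT5, KRT14 and KRT6A, which make up most of the sum, and PKP1 were lower in every knockout library than in Control. CDH1 was higher in each, at 138 to 177 TPM against 100.3 to 106, TP63 and EPCAM were higher in C9ko and lower in A2ko, and KRT17 was highest in A2ko, at 1749 TPM. Of the markers of other cell types, 3 of 6 for fibroblasts and 1 each of 5 for blood cells, 4 for endothelium and 4 for melanocytes reached 1 TPM in any library. Their summed levels were 10.8 to 12.2 TPM in Control against 7.36 to 17.7 in the knockouts for fibroblasts, 14.6 to 18.2 against 16.5 to 52.8 for blood cells, 3.51 to 4.55 against 8.63 to 30.1 for endothelium and 1.60 to 2.07 against 2.22 to 4.38 for melanocytes. Of these markers, COL3A1, KDR, TYR and DCT were listed at 0 in every library, and PTPRC was at most 0.0232 TPM. The 3 fibroblast markers that reached 1 TPM were COL1A1, COL1A2 and LUM. Over the 7 libraries COL1A1 was at 5.56 to 13.4 TPM, COL1A2 at 1.02 to 2.12 and LUM at 0.440 to 2.92. The 1 marker of blood cells that reached 1 TPM was CD14, at 14.2 to 17.9 TPM in Control and 52.5 and 50.8 in C9ko. That of endothelium was CDH5, at 3.21 to 4.27 TPM in Control and 8.15 to 29.9 in the knockouts, and that of melanocytes was PMEL, at 1.44 to 1.50 against 2.07 to 4.08. The part of the marker levels and of the mitochondrial share in the results below was not tested, except that the same 5 members were called in C9ko without mitochondrial genes. In bulk RNA, fewer cells of a type and less RNA per cell cannot be told apart.

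The results turn on the ligand genes, and first on AREG and EREG, which lie next to each other on chromosome 4. Their upstream sequences are printed because these were the members with every knockout library above every Control library. Each line gives the 250 bases before the RefSeq start of the gene on GRCh38.p14, plus strand, 5′ to 3′, at chr4:74444886-74445135 for AREG and chr4:74364895-74365144 for EREG. Capitals mark matches to the cAMP response element TGACGTCA or the TATA element TATAAA. A search for the AP-1 element TGANTCA found no match in either.
AREG: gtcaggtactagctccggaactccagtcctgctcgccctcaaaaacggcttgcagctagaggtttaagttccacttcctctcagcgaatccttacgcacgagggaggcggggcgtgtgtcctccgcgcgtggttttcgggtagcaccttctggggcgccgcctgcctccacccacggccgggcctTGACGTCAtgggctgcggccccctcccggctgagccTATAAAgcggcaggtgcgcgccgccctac
EREG: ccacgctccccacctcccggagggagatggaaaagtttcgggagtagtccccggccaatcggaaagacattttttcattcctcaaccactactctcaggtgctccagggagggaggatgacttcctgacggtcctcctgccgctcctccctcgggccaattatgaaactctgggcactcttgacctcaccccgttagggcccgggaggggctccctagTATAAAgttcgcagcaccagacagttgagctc

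The TATA match began 29 bases before the start in AREG and 32 bases before it in EREG, and the response element of AREG began 65 bases before the start. Both strands were searched, the 3 motifs do not contain one another, and a match describes letters only. Over all 35116 RefSeq promoter windows of the same length, 1.65% held TGACGTCA, 6.57% TGANTCA and 10.7% TATAAA. Of the 10 members, 9 had a promoter entry, ERBB3 being the other. Among them AREG was the only one with TGACGTCA. TATAAA occurred also upstream of EPGN and of the second of 2 starts listed for EGFR, and TGANTCA upstream of that EGFR start and of ERBB2. None of the 3 motifs was found upstream of TGFA, HBEGF, BTC or ERRFI1.

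In Control, the receptor was far more abundant than its ligands. EGFR (ENSG00000146648, chromosome 7, 55019021 to 55211628) was at 265, 285 and 350.0 TPM, the highest of the 10 genes. ERRFI1 followed at a mean of 77.1 TPM, ERBB2 at 31.7, ERBB3 at 18.2, AREG at 17.2, TGFA at 14.7, EREG at 11.4, HBEGF at 9.85, BTC at 1.28 and EPGN at 0.241. Neighbours in this order did not overlap between the 3 Control libraries, except ERBB3 and AREG. The 6 ligand genes summed to 54.6 ± 1.20 TPM (SD, n = 3), which was 18.4% ± 2.50 (SD, n = 3) of the EGFR level. AREG made up 31.5% of the ligand sum, TGFA 26.9%, EREG 20.8% and HBEGF 18.1%.

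**Figure D1:**
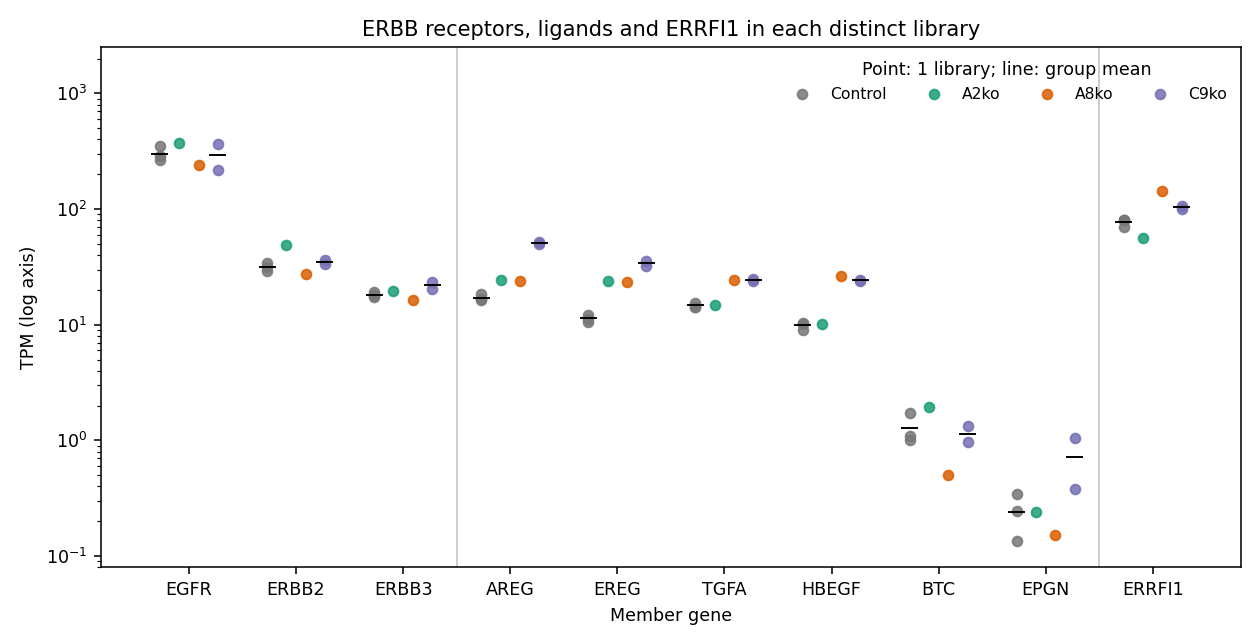
TPM of the 10 members (log axis) in the 7 distinct libraries; each point is 1 library and each short line a group mean where there is more than 1 library. The 2 C9ko libraries lie above all Control libraries for AREG, EREG, TGFA, HBEGF and ERRFI1. They also do so for ERBB3, which was not called, and for EPGN, which was not tested. The EGFR values of C9ko, 219 and 364 TPM, lie on either side of the Control range.

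To ask which members differed in C9ko, the knockout with replicates, it was compared with Control by limma on log2(TPM + 1). P-values were adjusted by Benjamini-Hochberg over the 17100 tested genes, with a call at an adjusted p under 0.05. AREG, EREG, HBEGF, TGFA and ERRFI1 rose, no member fell, and none of the receptor genes was called. In counts, 5 of the 9 tested members were called higher, against 22% of all tested genes called higher, 7.42% called lower and 29.5% in either direction. Of the 9, 3 rose by at least 1 log2 unit, against 3.25% of all tested genes. As the members were chosen with earlier results of these data known, these counts beside the shares are a description only. EPGN was under the minimum for testing. The median log2 difference was 0.43 over the 9 members and 0.11 over all tested genes.

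AREG encodes amphiregulin, an EGFR ligand made by keratinocytes (ENSG00000109321, chromosome 4, 74445134 to 74455009, plus strand). It was at 16.4, 16.7 and 18.5 TPM in Control, 24.0 in A8ko, 24.2 in A2ko, and 50.4 and 51.6 in C9ko. All 4 knockout libraries were above all Control libraries, and both C9ko libraries stood above A2ko and A8ko. The mean in C9ko was 2.97 times that in Control, a log2 difference of 1.52 (SE 0.08, limma adjusted p 3.77e-05, higher in 2 of 2 libraries) and of 1.39 after scaling.

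EREG encodes epiregulin, which binds EGFR and ERBB4 (ENSG00000124882, chromosome 4, 74365143 to 74388751, plus strand). It was at 12.2, 10.6 and 11.3 TPM in Control, 23.6 in A8ko, 23.9 in A2ko, and 32.2 and 35.7 in C9ko. The groups did not overlap: every knockout library was above every Control library. The C9ko mean was 2.99 times that of Control, a log2 difference of 1.50 (SE 0.09, limma adjusted p 6.89e-05, higher in 2 of 2 libraries) and of 1.38 after scaling.

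HBEGF encodes heparin-binding EGF-like growth factor, whose precursor is also the diphtheria toxin receptor (ENSG00000113070, chromosome 5, 140332843 to 140346631, minus strand). It was at 10.4, 10.1 and 9.04 TPM in Control, 26.3 in A8ko, 10.2 in A2ko, and 24.1 and 24.4 in C9ko. A2ko lay inside the Control range, and A8ko and both C9ko libraries lay above it. C9ko was 2.46 times Control, a log2 difference of 1.22 (SE 0.08, limma adjusted p 0.00012, higher in 2 of 2 libraries) and of 1.09 after scaling.

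TGFA encodes transforming growth factor alpha, which binds EGFR (ENSG00000163235, chromosome 2, 70447280 to 70554193, minus strand). It was at 14.2, 14.4 and 15.4 TPM in Control, 24.5 in A8ko, 15.0 in A2ko, and 23.7 and 25.0 in C9ko. As with HBEGF, A2ko lay inside the Control range and the other knockout libraries above it. The rise in C9ko was 1.66 times, a log2 difference of 0.69 (SE 0.07, limma adjusted p 0.000691, higher in 2 of 2 libraries) and of 0.57 after scaling.

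The remaining ligand genes were weakly expressed. BTC, which encodes betacellulin (ENSG00000174808, chromosome 4, 74744759 to 74794686, minus strand), was at 1.74, 1.09 and 1.01 TPM in Control, 0.500 in A8ko, 1.95 in A2ko, and 0.961 and 1.33 in C9ko. C9ko and Control overlapped, with a log2 difference of -0.08 (95% interval -0.54 to 0.38, limma adjusted p 0.782) and of -0.15 after scaling. EPGN, which encodes epigen (ENSG00000182585, chromosome 4, 74308473 to 74315307, plus strand), ranged from 0.134 to 1.05 TPM over the 7 libraries and was not tested. It was at 0.134 to 0.343 TPM in Control, 0.153 in A8ko, 0.242 in A2ko, and 0.378 and 1.05 in C9ko.

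The receptor genes were not called in C9ko. EGFR was at 219 and 364 TPM in C9ko, 374 in A2ko and 242 in A8ko, so the C9ko libraries differed from each other by more than the Control libraries did. Its log2 difference was -0.08 (95% interval -0.59 to 0.44, limma adjusted p 0.817), and leaving out C9ko 1 turned it to 0.29 and leaving out C9ko 2 gave -0.44. After scaling it was -0.21. ERBB2, the family member without a known ligand of its own (ENSG00000141736, chromosome 17, 39687914 to 39730426), was at 28.9, 31.8 and 34.5 TPM in Control, 27.5 in A8ko, 48.6 in A2ko, and 33.8 and 36.3 in C9ko. Its difference in C9ko was 0.14 (95% interval -0.07 to 0.35, limma adjusted p 0.272) and 0.01 after scaling. ERBB3, a neuregulin receptor with little kinase activity (ENSG00000065361, chromosome 12, 56076799 to 56103505), was at 18.0, 19.1 and 17.4 TPM in Control, 16.5 in A8ko, 19.5 in A2ko, and 20.3 and 23.6 in C9ko. Its difference was 0.26 (95% interval 0.04 to 0.47, limma adjusted p 0.0721) and 0.13 after scaling. ERBB2 overlaps PGAP3 and MIEN1, which run on the opposite strand. Strand use in the authors' quantification is not given in the sources used here, so reads of these genes may not be separable.

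ERRFI1, the receptor inhibitor (ENSG00000116285, chromosome 1, 8004404 to 8026308, minus strand), was at 80.8, 69.9 and 80.5 TPM in Control, 143 in A8ko, 56.1 in A2ko, and 100.4 and 107 in C9ko. A2ko was below all Control libraries, and A8ko and C9ko were above them. The rise in C9ko was 1.35 times, a log2 difference of 0.43 (SE 0.08, limma adjusted p 0.00977, higher in 2 of 2 libraries) and of 0.30 after scaling. The call was lost without C9ko 2 (adjusted p 0.0601) and without the filter on low values (0.0746), and over all alternatives the adjusted p ran from 0.00749 to 0.0746.

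**Figure D2:**
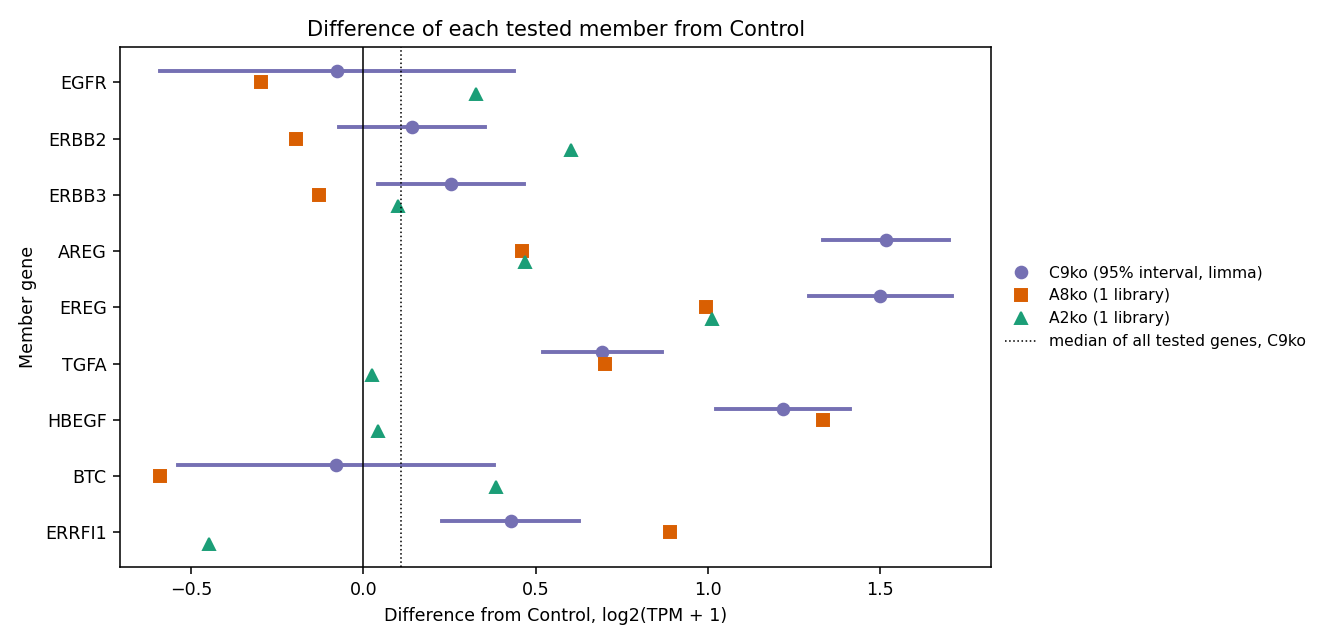
Difference of each tested member from Control on the log2(TPM + 1) scale; circles show C9ko with the 95% interval from limma, squares the 1 A8ko library and triangles the 1 A2ko library, and the dotted line is the median of all tested genes in C9ko, 0.11. The C9ko intervals of AREG, EREG and HBEGF lie above 1, and those of EGFR, ERBB2 and BTC include 0.

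For A2ko and A8ko, with 1 library each, differences are given without a replicate check or p-value. In A2ko, EREG was the 1 member of 9 outside the Control range and at least 1 log2 unit from its mean, at 1.01, against 3.54% of all tested genes that were higher by this rule, 1.53% that were lower and 5.07% in either direction. It fell short of 1 after scaling, at 0.89, and without Control 2, at 0.97. AREG in A2ko was 1.41 times Control, a log2 difference of 0.47 and of 0.35 after scaling. HBEGF and TGFA differed from Control by 0.04 and 0.03 there, and by -0.08 and -0.10 after scaling. ERBB2 was at 0.60, BTC at 0.39, EGFR at 0.33, ERBB3 at 0.10 and ERRFI1 at -0.45 in A2ko. After scaling they were at 0.48, 0.31, 0.20, -0.02 and -0.58.

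In A8ko, HBEGF was the 1 member of 9 past the same limits, at 1.33 (1.24 after scaling), against 2.05% of all tested genes that were higher, 2.68% that were lower and 4.73% in either direction. EREG was at 0.99 (0.90 after scaling), 2.08 times Control, and passed the limit without Control 1, at 1.04, and, like BTC on the lower side, with a pseudocount of 0.1. ERRFI1 was at 0.89, TGFA at 0.70 and AREG at 0.46, and after scaling at 0.79, 0.61 and 0.36. The 3 receptor genes were at -0.30 for EGFR, -0.20 for ERBB2 and -0.13 for ERBB3, each with a value below the Control range. After scaling they were at -0.40, -0.29 and -0.23.

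Across all 4 knockout libraries, AREG and EREG lay above every Control library, 2 of the 9 tested members, against 17% of all tested genes that lay above, 4.61% that lay below and 21.6% on either side. Both still did so after scaling. To ask what the knockouts share, the mean of each knockout group was taken as 1 value, and limma compared these 3 values with the 3 of Control. EREG was called, with 11.4 ± 0.806 TPM in Control (SD, n = 3) and 27.1 ± 5.91 over the knockout groups (SD, n = 3), a log2 difference of 1.17 (SE 0.16, limma adjusted p 0.0279, higher in 4 of 4 libraries) and of 1.06 after scaling. This 1 call among 9 members stands against 0.509% of all tested genes called higher, 0.52% called lower and 1.03% in either direction. It was lost without Control 1, 2 or 3 (adjusted p 0.181, 0.202 and 0.191) and without the filter on low values (0.114), and over all alternatives the adjusted p ran from 0.000157 to 0.202.

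The other members were not called in all knockouts together. AREG, for example, differed by 0.82 (95% interval 0.15 to 1.48, limma adjusted p 0.232), HBEGF by 0.86 (0.09 to 1.64, adjusted p 0.268) and TGFA by 0.47 (0.02 to 0.93, adjusted p 0.297). ERRFI1 differed by 0.29 (-0.44 to 1.02, adjusted p 0.681). After scaling these differences were 0.70 for AREG, 0.75 for HBEGF, 0.36 for TGFA and 0.17 for ERRFI1. Without the A2ko library the count of called members was 4, namely EREG, HBEGF, TGFA and ERRFI1. In that fit 26 of the other listed genes were called too. The share of all tested genes called there was not taken, so the count is a description only. The receptor genes differed by -0.02 for EGFR (-0.14 after scaling), 0.18 for ERBB2 (0.06) and 0.08 for ERBB3 (-0.04), with limma adjusted p of 0.977, 0.687 and 0.800.

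The ligand genes among the members together made up a larger share of the TPM in each knockout library than in Control, given here as a description with no test. Their sum was 53.2 to 55.4 TPM in Control, 132 and 139 TPM in C9ko, 99.0 TPM in A8ko and 75.4 TPM in A2ko. It leaves out NRG1, which is not a member. NRG1 was at 27.0 to 29.4 TPM in Control, 33.5 and 31.9 in C9ko, 45.4 in A8ko and 12.1 in A2ko. Set against EGFR, the ligand sum was 15.8 to 20.8% of the EGFR level in Control, 40.8% in A8ko, 20.2% in A2ko, and 60.1 and 38.2% in C9ko. A2ko thus stayed inside the Control range on this ratio, and its EGFR level was the highest of the 7 libraries as deposited, though not after scaling. EGFR made up 84.8 to 87.1% of the 3 receptor transcripts in Control, 84.6% in A2ko and A8ko, and 80.2 and 85.9% in C9ko.

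The make-up of the ligand sum is likewise a description, and differences in it were not tested. AREG held 29.7 to 33.4% of it in Control, 24.2% in A8ko, 32.1% in A2ko, and 38.3 and 37.1% in C9ko. EREG held 19.9 to 22.1% in Control, 23.8% in A8ko, 31.7% in A2ko, and 24.4 and 25.7% in C9ko. AREG thus stood above the Control range in C9ko and below it in A8ko, and EREG above it in every knockout library. HBEGF held 16.3 to 19.1% in Control, 26.6% in A8ko, 13.5% in A2ko, and 18.3 and 17.5% in C9ko. TGFA held 25.8 to 27.8% in Control, 24.8% in A8ko, 19.8% in A2ko, and 18.0% in both C9ko libraries. The highest share was thus AREG in C9ko and A2ko and HBEGF in A8ko, and in A2ko AREG and EREG were nearly level.

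The order of the members by TPM changed accordingly. In C9ko AREG followed EGFR and ERRFI1, at a mean of 51.0 TPM, above ERBB2 at 35.1 and ERBB3 at 21.9, and EREG, TGFA and HBEGF also stood above ERBB3. In that order ERBB2 and EREG overlapped between the C9ko libraries, as did TGFA and HBEGF, and BTC and EPGN. In A8ko all 4 of these ligand genes stood between ERBB2 and ERBB3, from HBEGF at 26.3 TPM to EREG at 23.6. In A2ko AREG and EREG stood between ERBB2 and ERBB3, and TGFA and HBEGF below ERBB3.

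**Figure D3:**
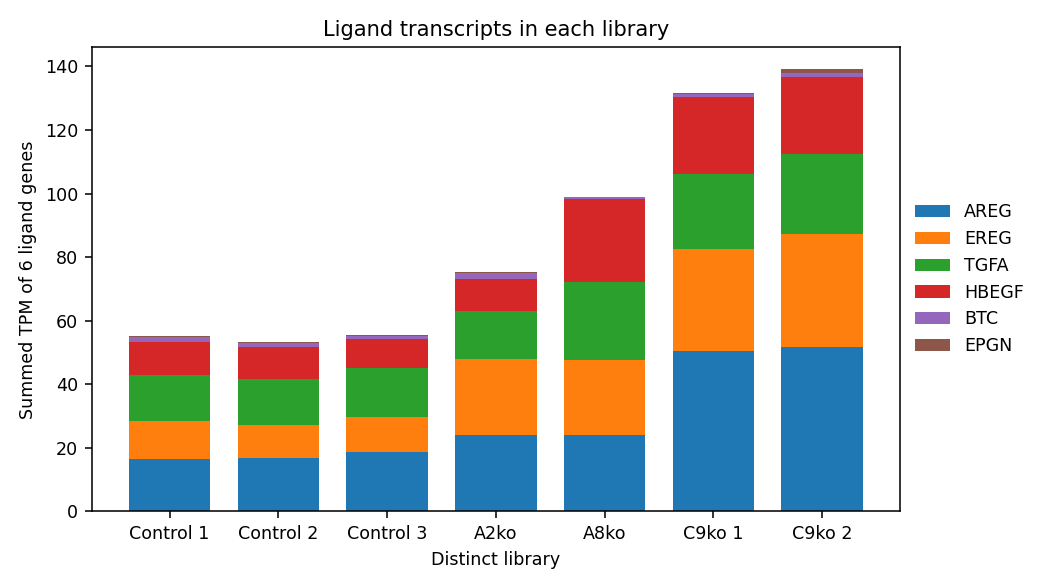
Summed TPM of the 6 ligand genes in each distinct library, stacked by gene, from 0. The Control bars reach 53.2 to 55.4 TPM and the C9ko bars 132 and 139 TPM; AREG is the largest block in both C9ko bars and HBEGF in the A8ko bar.

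Of the 6 ligand genes, 4 lie in 1 cluster on chromosome 4, in the order EPGN, EREG, AREG and BTC, with 49.8 kb between EPGN and EREG, 56.4 kb between EREG and AREG, and 290 kb between AREG and BTC. Beside them lie the genes of the CXCL chemokines, which attract neutrophils. Of 11 listed neighbours, 6 were tested, and in C9ko 2 rose, 1 fell and 3 were not called, with a median log2 difference of 0.34. Over all tested genes 22% were called higher in C9ko and 7.42% lower. CXCL1 was at 50.0 to 53.5 TPM in Control, 143 in A8ko, 54.8 in A2ko, and 170 and 189 in C9ko, a rise of 1.76 in C9ko (SE 0.07, limma adjusted p 1.96e-05). CXCL8 was at 19.9 to 21.4 TPM in Control, 62.3 in A8ko, 20.3 in A2ko, and 66.7 and 71.8 in C9ko, a rise of 1.70 (SE 0.07, limma adjusted p 1.93e-05). RASSF6 fell by 0.69 in C9ko (SE 0.14, limma adjusted p 0.0124, and 0.07 without C9ko 1, with 0.00748 to 0.07 over all alternatives) and had a log2 difference of -1.18 in A8ko. MTHFD2L, which lies between the chemokine genes and the ligand genes, differed by 0.21 in C9ko (limma adjusted p 0.215) and by 0.10 after scaling, and BTC on the far side by -0.08. The genes called in C9ko thus did not form an unbroken stretch of the cluster.

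**Figure D4:**
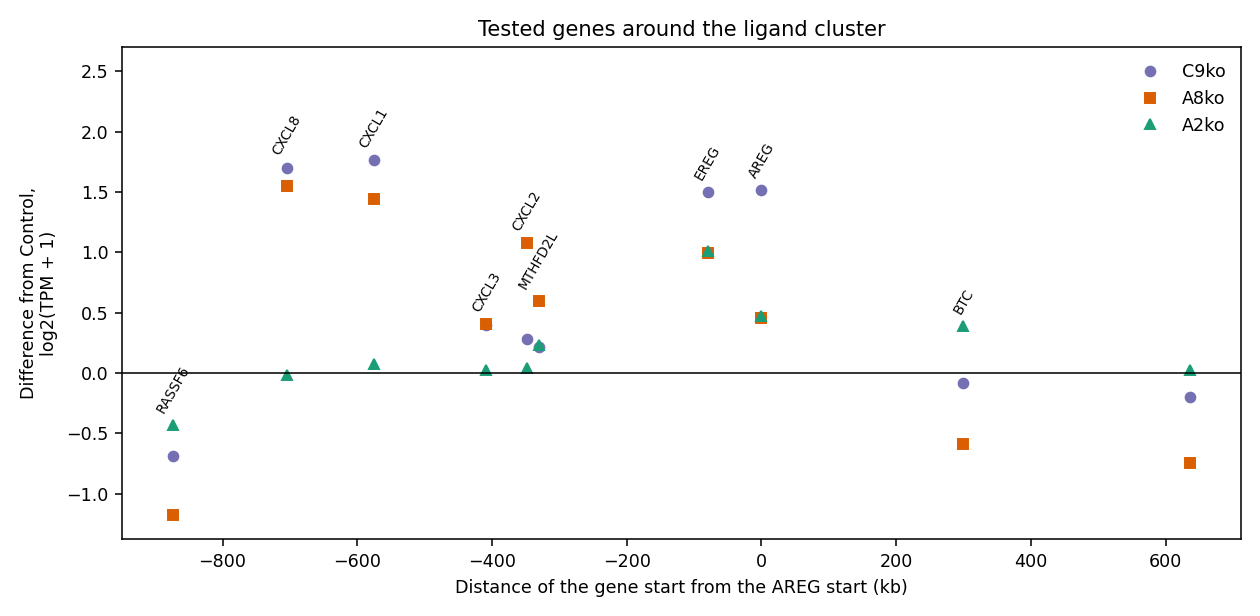
Log2 difference from Control of each tested gene within 1000 kb of the AREG start on chromosome 4, by distance of its start from that of AREG in kb, for C9ko (mean of 2 libraries), A8ko and A2ko (1 library each); the unlabelled gene at the right is LINC02562. CXCL8, CXCL1, EREG and AREG are at 1.50 or more in C9ko, with CXCL3, CXCL2 and MTHFD2L between them at 0.21 to 0.40.

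The 5 nearest tested genes on each side of a member were read in the same fit. Around HBEGF their median in C9ko was 0.04, around TGFA 0.14 and around ERRFI1 0.05, against 1.22, 0.69 and 0.43 for the members themselves. Around AREG and EREG it was 0.31, with 3 and 4 of 10 neighbours called higher, among them each other. Around EGFR it was 0.37, with 5 of 10 called higher, whereas EGFR itself was at -0.08. Over all tested genes 22% were called higher in C9ko.

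The profiles most like those of the members over the 7 libraries were found by the root-mean-square difference of centred log2 values, which share their groups and are a description only. For AREG these were B4GALT1 on chromosome 9 (0.0622) and GLB1 on chromosome 3 (0.0946), and for EREG they were STMN3 on chromosome 20 (0.0817) and SPARC on chromosome 5 (0.0994). For HBEGF they were FEZ1 on chromosome 11 (0.0683) and VEGFC on chromosome 4 (0.0942). For ERRFI1 they were DUSP5 on chromosome 10 (0.0632), a phosphatase gene of the ERK pathway, and CGAS on chromosome 6 (0.0885). AREG ranked 114th in likeness to EREG and EREG 204th to AREG, at 0.26, so the neighbouring genes were not each other's nearest profile.

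The other genes of the pathway were taken from lists by role and read in the same fits. Of 66 tested genes outside the cluster, 28 rose and 5 fell in C9ko (24 and 9 after scaling). Of all tested genes 22% were called higher, 7.42% lower and 29.5% in either direction. After scaling, 2626 of the 17100 were called higher and 2187 lower. The median log2 difference of the 66 was 0.20. In all knockouts together 1 of the 66 was called, against 1.03% of all tested genes.

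Among the other receptors and ligands, 2 of 6 were tested and neither was called in C9ko. ERBB4 was at most 0.113 TPM, and NRG3 was listed at 0 in every library. NRG1, a ligand of ERBB3 and ERBB4, was at 28.0, 27.0 and 29.4 TPM in Control, 45.4 in A8ko, 12.1 in A2ko, and 33.5 and 31.9 in C9ko. Its log2 difference was -1.16 in A2ko and 0.67 in A8ko, and 0.21 in C9ko (limma adjusted p 0.0616, and 0.08 after scaling). NRG4, EGF and NRG2 were named after their values were seen. NRG4, the other tested gene, was at 0.446 to 1.22 TPM in Control, 0.146 in A8ko, 1.53 in A2ko, and 0.198 and 0.155 in C9ko. Its log2 difference in C9ko was -0.64 (limma adjusted p 0.0742). EGF and NRG2 were too low to be tested. EGF was at 0.610 to 1.03 TPM in Control, 0.223 in A8ko, 0.696 in A2ko, and 0.0756 and 0.0924 in C9ko. NRG2 went the other way in C9ko, at 0.830 and 0.543 TPM against 0.0581 to 0.108 in Control, with 0.292 in A8ko and 0.0717 in A2ko.

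Among 8 genes of ligand shedding, 5 rose and 1 fell in C9ko (5 and 2 after scaling), with a median of 0.40. Over all tested genes 22% were called higher and 7.42% lower. ADAM17, the main protease that releases AREG, TGFA and HBEGF, was at 26.7 to 27.7 TPM in Control, 38.3 in A8ko, 32.0 in A2ko, and 39.2 and 39.0 in C9ko, a rise of 0.50 (SE 0.06, limma adjusted p 0.00123). ADAM9 rose by 0.57 (limma adjusted p 0.00166) and ADAM12 by 0.51 (adjusted p 0.0123, and 0.0756 without C9ko 2, with 0.00883 to 0.0756 over all alternatives). TIMP3, which encodes an inhibitor of ADAM17, was at 3.57, 2.82 and 2.69 TPM in Control, 0.631 in A8ko, 15.7 in A2ko, and 1.18 and 0.677 in C9ko. It fell by 1.07 in C9ko (SE 0.16, limma adjusted p 0.00366), and its log2 difference was -1.30 in A8ko and 2.06 in A2ko.

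Of the 24 adaptors and kinases downstream, 6 rose in C9ko and none fell, but 3 rose and 2 fell after scaling. Over all tested genes 22% were called higher and 7.42% lower, and after scaling 2626 and 2187 of 17100. The median of the 24 was 0.02, below that of all tested genes. GAB2, a docking protein, rose by 0.93 (limma adjusted p 0.00395), and the transcription factor gene STAT3 by 0.36 (adjusted p 0.00763), or 0.23 after scaling. Of 17 negative regulators, 7 rose and 1 fell, with the same counts after scaling, against the same shares of all tested genes. The median of the 17 was 0.22. SPRED1 and SPRED2, inhibitors of RAS signalling, rose by 0.81 and 0.64 (limma adjusted p 0.00105 and 0.00346), and LRIG1, a membrane protein that promotes loss of ERBB receptors, by 0.81 (adjusted p 0.00342). CBLB, a ubiquitin ligase gene, was at 10.6 to 11.2 TPM in Control, 5.39 in A8ko, 7.81 in A2ko, and 6.17 and 6.11 in C9ko, a log2 difference of -0.73 in C9ko (SE 0.08, limma adjusted p 0.000745).

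Genes that respond to ERK signalling moved in both directions. Of 15 tested, 10 rose, 3 fell and 2 were not called in C9ko, with a median of 0.72 against 0.11 over all tested genes. After scaling, 9 rose and 4 fell, against 2626 and 2187 of the 17100 tested genes. Of all tested genes 22% were called higher in C9ko and 7.42% lower. In A8ko 6 of the 15 were higher and 1 lower past the limits used above, against 2.05% and 2.68% of all tested genes. Their median in A8ko was 0.79. In A2ko none of the 15 were, against 3.54% higher and 1.53% lower of all tested genes, with a median of -0.37. With 15 genes, a count of none does not differ plainly from these shares. The counts for A8ko and A2ko are as deposited. After scaling, DUSP5 in A8ko fell short of the limit, at 0.91. FOSL1 in A2ko was at -0.92 as deposited and passed the limit on the lower side after scaling, at -1.05. DUSP4, which encodes an ERK phosphatase, was at 3.50, 3.90 and 4.15 TPM in Control, 21.6 in A8ko, 2.82 in A2ko, and 26.0 and 28.4 in C9ko, a rise of 2.54 in C9ko (SE 0.09, limma adjusted p 1.63e-05). FOSL1, an AP-1 subunit, was at 72.1 to 77.3 TPM in Control, 256 in A8ko, 38.9 in A2ko, and 182 and 183 in C9ko, a rise of 1.28 (SE 0.06, limma adjusted p 3.33e-05). ETV4, an ETS factor, rose by 1.20 (SE 0.10, limma adjusted p 0.000224).

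The 3 that fell in C9ko as deposited were FOS, EGR1 and EMP1. FOS, an immediate early gene, was at 141 to 149 TPM in Control, 59.1 in A8ko, 244 in A2ko, and 25.6 and 26.3 in C9ko, a log2 difference of -2.44 (SE 0.06, limma adjusted p 5.70e-06). EGR1, also an immediate early gene, fell by 1.47 (SE 0.06, limma adjusted p 1.93e-05). EMP1, which encodes an epithelial membrane protein, fell by 1.10 (SE 0.06, limma adjusted p 5.92e-05). EMP1 was also the 1 listed gene called in all knockouts together, with 47.7 to 50.0 TPM in Control, 28.2 in A8ko, 26.6 in A2ko, and 22.0 and 22.3 in C9ko, a log2 difference of -0.91 (SE 0.11, limma adjusted p 0.0238). That call was lost without Control 1, 2 or 3, with limma adjusted p of 0.181, 0.170 and 0.169, and without the filter on low values (0.0864). Over all alternatives it ran from 0.000117 to 0.181.

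**Figure D5:**
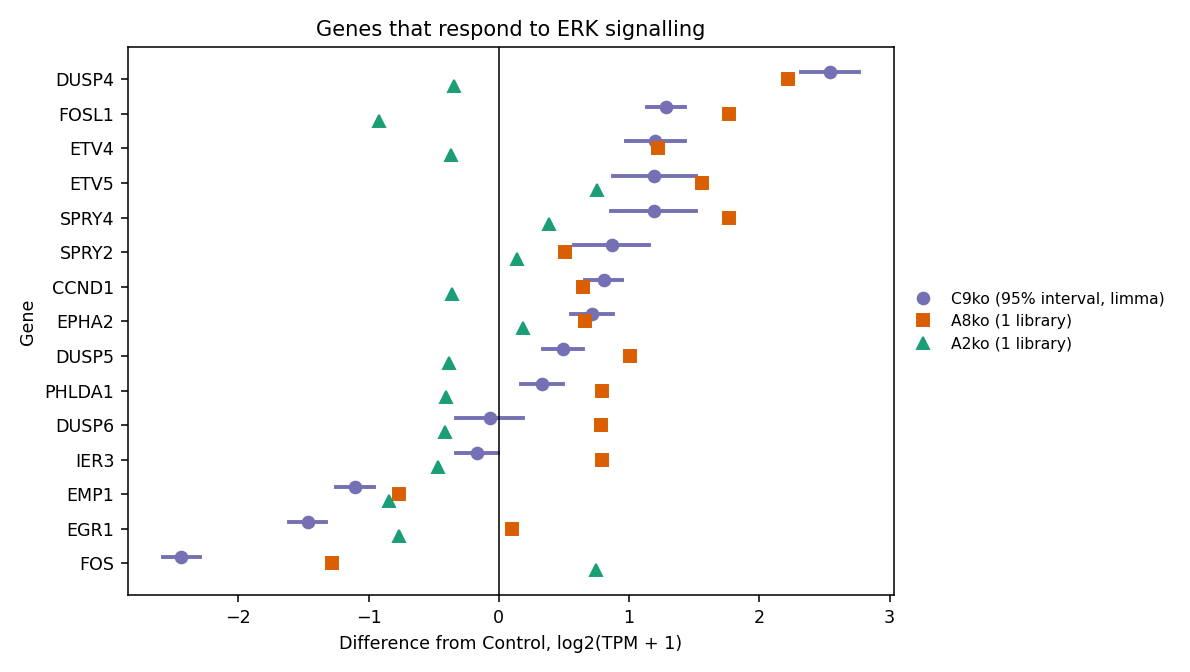
Log2 difference from Control of the 15 tested genes of the ERK response list, ordered by C9ko; circles show C9ko with the 95% interval from limma, squares the A8ko library and triangles the A2ko library. C9ko runs from -2.44 for FOS to 2.54 for DUSP4, and A2ko lies below 0 for DUSP4, FOSL1 and ETV4.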

How the data were processed

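The deposited values are TPM per Ensembl gene, computed by the authors, on genome build hg38 per the submitters' processing notes. The aligner, quantification tool and annotation are not given in the sources used here. Per the labels' protocols, RNA was taken with TRIzol and polyA RNA was made into dUTP libraries. Ensembl identifiers were matched to symbols through the gene name table given with the data, and positions are those of GENCODE release 29 on GRCh38. TPM keeps no depth, so no counting interval is given.

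From these values log2(TPM + 1) was computed, and fold changes on that scale understate changes of weak genes. Genes with at least 1 TPM in at least 2 distinct libraries were tested with limma 3.58.1 in R 4.3.3 (lmFit, contrast, eBayes with trend), all 4 groups in 1 fit for C9ko, and 3 knockout group means against 3 Control libraries for all knockouts. The fits were also run on simulated data, in which the same genes moved by 1 log2 unit in every knockout library. The simulated knockout groups differed only by noise between libraries. That run therefore cannot show how the fit of all knockouts handles real differences between them. A2ko and A8ko were described by counts outside the Control range and at least 1 log2 unit from its mean. Alternatives were a pseudocount of 0.1, no filter, a mean of at least 5 TPM, scaling by the median of ratios, removal of mitochondrial genes, no trend, other sample sets, a replicate block and leaving out each library.

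The members and lists were chosen with earlier results of these data known. Named pathway genes were, per list, up to 3 rises and 3 falls called in C9ko and in all knockouts, and the highest and lowest gene past the limits in A2ko and A8ko, of which 1 is not reported here. For each member that spanned at least 1 log2 unit, the 2 genes with the nearest profile were named.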

Additional observations from a re-analysis of the deposited data

Results flagged for a closer look

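Among the members, the pathway genes named by the rule and the genes named for a like profile, 15 are listed for which every library of 1 knockout group lay above all Control libraries and every library of another lay below them. How many of all tested genes have this pattern was not counted, so the list is a description only. Genes shown in the plot of ERK response genes and not named in the text were not screened. The difference between the knockout groups was not tested for any of them, as 2 of the 3 knockouts rest on 1 library. All were set against the same Control libraries. The gap is the log2 difference between the highest and the lowest such group.

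Among the members, ERRFI1 was above Control in A8ko and C9ko and below it in A2ko, with a gap of 1.34. BTC, at 0.500 to 1.95 TPM over the libraries, was above Control in A2ko and below it in A8ko, with a gap of 0.98, and ERBB2 likewise with 0.80. These 3 kept the pattern after scaling by the median of ratios. EGFR was above Control in A2ko and below it in A8ko with a gap of 0.62, and ERBB3 above in A2ko and C9ko and below in A8ko with 0.39, and neither kept the pattern after scaling.

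Of the other genes of the pathway, NRG1 (gap 1.83), ADAM12 (1.26), DUSP4 (2.88), FOSL1 (2.69), ETV4 (1.59), DUSP5 (1.39) and, outside the pathway lists, CGAS (1.13) were above Control in A8ko and C9ko and below it in A2ko. TIMP3 (3.35) and FOS (3.19) were above Control in A2ko and below it in A8ko and C9ko. EGR1 (1.57) was above Control in A8ko and below it in A2ko and C9ko. After scaling, NRG1 and EGR1 did not keep the pattern.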

How the results depend on the processing

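In C9ko, 4 or 5 of the 9 tested members were called under every alternative run. Of the 72 other listed genes tested, 29 to 38 were called, against 36 in the main fit, where 29.5% of all tested genes were. These 72 are the 66 pathway genes and the 6 tested neighbours in the cluster. With the replicate number as a block, 5 members and 31 of the other listed genes were called. Deviations of same-numbered Control and C9ko libraries had correlations of -0.053 and -0.012 over genes, so the numbers were not taken as pairs.

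The count of members called in all knockouts together, 1 as reported, was 0 without the filter, 0 without any 1 Control library, 4 without A2ko and 5 when the knockout average was taken within the fit of all 4 groups. That of the other listed genes, also 1, was 0, 0, 26 and 35 under the same settings, and 2 with a mean of at least 5 TPM. The share of all tested genes called under these settings was not taken. In A2ko the count of members past the limits was 0 after scaling and 0 to 1 when a Control library was left out. In A8ko it was 3 with a pseudocount of 0.1 and 1 to 2 when a Control library was left out. The 2 members above Control in every knockout library became 3 without Control 1 (HBEGF joined) or Control 3 (TGFA joined). The cause of these changes was not tested, beyond the fewer samples or other genes that each setting uses.

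Signs changed for differences that were not called. In C9ko, EGFR was at 0.04 with the block and ran from -0.44 to 0.29 when a library was left out, and BTC from -0.20 to 0.06. In all knockouts, EGFR ran from -0.10 to 0.10 when a Control library was left out and was at 0.12 without A8ko and 0.01 without C9ko. BTC ran from -0.18 to 0.04 and was at 0.15 without A8ko. ERBB2 was at -0.03 without A2ko, ERBB3 at -0.04 after scaling and -0.01 without C9ko, and ERRFI1 at -0.01 without A8ko. TPM keeps no depth, so counting error behind the weak genes BTC and EPGN is unknown.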
